A study of Mus musculus with 30 samples.

Results

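Tumours formed by Smchd1 null transformed fibroblasts were compared with tumours formed by wildtype ones. The members were the arrays whose labels name a tumour derived from transformed mouse embryonic fibroblasts (MEFs), 18 of the 30 arrays of the series. The null tumours (9 arrays) came from recipient mice 4, 5 and 6 and the wildtype tumours (9 arrays) from recipient mice 1, 2 and 3, with 3 arrays per recipient, and the arrays of a recipient were averaged, so n was 3 per genotype. Null cells carried the MommeD1 point mutation of Smchd1 on the FVB/N background and wildtype cells were FVB/N. Both genotypes had been transformed in culture by knockdown of p53 and overexpression of HRasV12, an activated form of the small GTPase HRas. They grew as tumours in nude mice, which lack most T cells, and the tumours were harvested fresh. The labels give no Smchd1 mutation for the recipients, so the RNA of a tumour mixes grafted cells of either genotype with host cells. They do not say whether the 3 arrays of a recipient are repeats of 1 RNA or separate tumours, nor how many MEF lines of each genotype were grafted. P-values of tumours compared by recipient therefore measure the spread between these recipients. The other 12 arrays, 3 null and 3 wildtype as primary MEFs and 3 of each as transformed MEFs, served for comparison. P-values within a culture stage measure the spread between culture replicates, whose titles give a replicate number only.

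Smchd1 is a non-canonical member of the SMC family, whose canonical members fold and tether chromosomes. It is known for holding genes silent on the inactive X chromosome and at autosomal clusters such as the clustered protocadherins and several imprinted domains, where one parental copy is normally kept off. Loss of such a silencer is therefore usually read from genes that are higher in mutant cells.

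Values are log2 intensities of a bead array, in which each gene was represented by 1 probe, and 13870 genes were kept. A gene was taken as above background where its mean exceeded a background level of 6.28 in null tumours and 6.30 in wildtype tumours, below which lay 95% of the probes that no array detected. Tumours varied more than cultures: the median SD was 0.31 between recipients of a genotype and 0.30 between arrays of a recipient, against 0.13 between transformed MEF replicates. For 15 of the 18 arrays, the array most like it was of the same recipient. The 3 exceptions were array 3 of null recipient 4, array 2 of wildtype recipient 1 and array 3 of wildtype recipient 3. The nearest arrays of both these wildtype arrays were of null recipients. Array 3 of wildtype recipient 3 also lay apart from the other 17, and leaving it out left the number of genes called at 0.

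Smchd1 itself, on chromosome 17, was lower in the null tumours. Its level was 8.01, 8.14 and 8.25 in null recipients 4, 5 and 6, against 9.16, 9.46 and 9.33 in wildtype recipients 1, 2 and 3. The groups did not overlap, and the lowest wildtype recipient lay above the highest null recipient by more than the SD of either group. The difference, null minus wildtype, was -1.18 ± 0.15 (SE, n = 3) on the log2 scale. The exact two-sided permutation test over recipients gave p = 0.1, which is the smallest p that 3 against 3 allows. In limma's test over all genes the adjusted p was 1.

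Expressed as signal above background on the linear scale, null samples held 10.9% of the wildtype signal as primary MEFs, 12.3% after transformation and 36.3% when grown as tumours. By null recipient the tumour share was 32.1%, 36.5% and 40.2% in recipients 4, 5 and 6, so each lay above the transformed share. A second Smchd1 probe, detected on 15 of all 30 arrays, put the share in tumours at 34.9% and was not above background in null transformed MEFs. Its recipients ran in the opposite order, at 46.4%, 33.9% and 24.5% in recipients 4, 5 and 6. Its genotype difference was -0.66 in tumours and -0.73 in transformed MEFs. By the first probe the genotype difference was smaller in tumours (-1.18) than in transformed MEFs (-2.13). The tumour difference minus the transformed MEF difference was 0.95 ± 0.23 (SE, n = 3) on the log2 scale. It did not pass limma's test of the difference of differences (adjusted p = 0.505). In bulk samples of this kind, fewer cells of a type and less RNA per cell cannot be told apart, and the part of host cells in the Smchd1 signal was not tested.

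**Figure D1:**
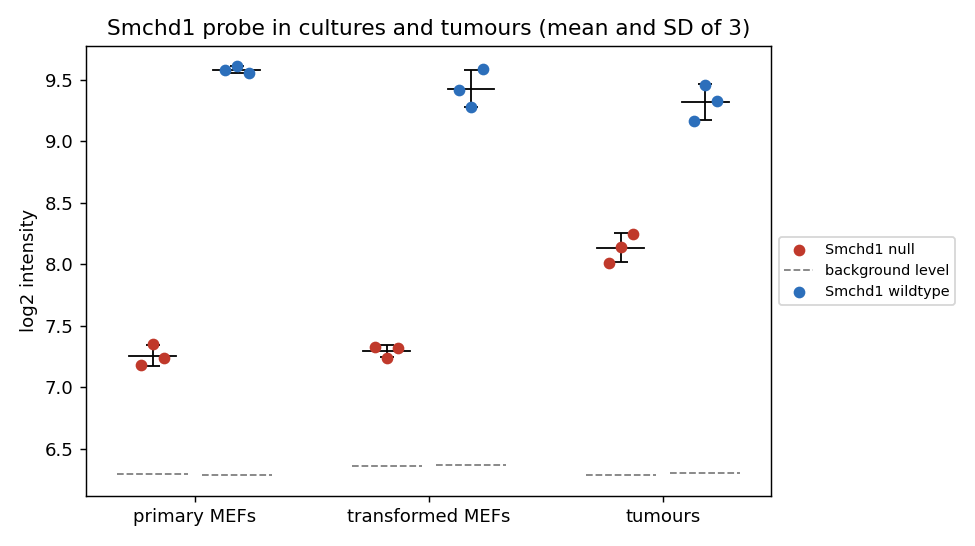
Log2 intensity of the Smchd1 probe (y axis) by stage (x axis: primary MEFs, transformed MEFs, tumours), with null samples left of wildtype samples. Points are samples (recipient means in tumours), black lines are means with SD over 3, and dashed lines are the background level; null tumours average 8.13, above null transformed MEFs at 7.29, while wildtype samples lie at 9.32 in tumours and 9.43 in transformed MEFs.

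Across the whole array no gene passed the test in the tumours. Of 13870 genes, 0 had an adjusted p under 0.05 in limma's fit of the 6 recipients (0%), and 313 had an unadjusted p under 0.05 (2.26%), 206 of them higher and 107 lower in null tumours. In 495 genes (3.57%) all 3 null recipients lay above all 3 wildtype recipients, and in 431 (3.11%) all lay below. The values of single genes that follow are thus descriptions of 6 tumour-bearing mice, and none of them is a call of the fit by recipient.

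The 3 tumour arrays of a recipient lay on 3 chips, numbered as the replicates, that each held all 6 recipients once. A fit of the 18 arrays with this replicate number as a block and the recipient as a random block (limma) called 7 genes (0.0505%). Its p-values rest on arrays and not on recipients alone. On a single simulated data set without a genotype difference the same fit made calls, which the fit by recipient did not. That simulation drew each gene independently and without a chip effect, so it differs from these arrays. Of the 7, Pcdhb22 (adjusted p = 0.000678), Onecut2 (adjusted p = 0.00143), Pisd-ps3 (adjusted p = 0.0131), Pcdh17 (adjusted p = 0.0454) and 2 transcripts without a gene symbol, 2810405F04RIK and LOC100046518 (adjusted p = 0.0454 each), were higher in null tumours. Smchd1 was lower (adjusted p = 0.0422).

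Genes of clusters that Smchd1 is known to hold silent lay among the clearest differences. Pcdhb22, a clustered protocadherin on chromosome 18 that serves in cell-to-cell recognition, stood at 10.18, 9.60 and 10.34 in null recipients 4, 5 and 6, against 7.52, 7.24 and 8.30 in wildtype recipients 1, 2 and 3. Every null recipient lay above every wildtype recipient by more than 1 log2 unit. The difference was 2.35 ± 0.34 (SE, n = 3), against 1.31 ± 0.13 in transformed MEFs, where the gene was called (adjusted p = 0.00291, limma). Of 58 clustered protocadherins listed, 16 were detected by 3 or more arrays and kept. Null arrays counted there, so genes high only in null tumours could be kept, and shares of the 16 are no test. Of the 16 measured, 4 were higher in null recipients without overlap (3.57% of all genes were) and 0 lower. Besides Pcdhb22 these were Pcdha7, at least 1.89-fold higher, Pcdhgb2, with a difference of 0.59 ± 0.18, and Pcdha6, at least 1.13-fold higher, where "at least" marks genes below background in wildtype tumours. The other 12 members lay between -0.14 and 0.22, and the median of the 16 was 0.04. Probes of this family can cross-hybridize, so single members are uncertain.

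Within the Snrpn cluster on chromosome 7, an imprinted domain expressed from the paternal copy, Ndn and Mkrn3 stood apart. Ndn encodes necdin, a protein of the MAGE family that restrains growth of neurons. It was measured at 12.997, 12.48 and 11.19 in null recipients 4, 5 and 6, against 10.25, 9.55 and 10.10 in wildtype recipients 1, 2 and 3. Null recipients 4 and 5 were furthest up and recipient 6 lay nearest the wildtype tumours. The difference was 2.25 ± 0.48 (SE, n = 3), against 1.23 ± 0.12 in transformed MEFs (adjusted p = 0.00231, limma).

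Mkrn3, which encodes a ring-finger protein known for restraining the onset of puberty, stood at 8.39, 8.28 and 8.53 in the null recipients and at 7.37, 6.62 and 7.17 in the wildtype recipients. The 3 null recipients were close together and all above the wildtype ones, with a difference of 1.35 ± 0.23 against 1.01 ± 0.12 in transformed MEFs (adjusted p = 0.00496, limma). Of the other 4 members measured in the Snrpn and Igf2r clusters, Ube3a differed by 0.18, Snurf by 0.08, Atp10a by -0.04 and Igf2r by -0.02, and all overlapped.

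The promoters of Ndn, Mkrn3 and Gad1 (a gene of neurons described next) are shown because these genes lay higher in every null recipient and Smchd1-dependent silencing is known to act together with methylation of CG sites. They are the 250 bases before the annotated start on the gene's strand, from RefSeq's GRCm38.p6 annotation, with CG in capitals. Ndn lies at chr7:62348027-62348276 on the plus strand, Mkrn3 at chr7:62420154-62420403 on the minus strand and Gad1 at chr2:70561879-70562128 on the plus strand.
Ndn: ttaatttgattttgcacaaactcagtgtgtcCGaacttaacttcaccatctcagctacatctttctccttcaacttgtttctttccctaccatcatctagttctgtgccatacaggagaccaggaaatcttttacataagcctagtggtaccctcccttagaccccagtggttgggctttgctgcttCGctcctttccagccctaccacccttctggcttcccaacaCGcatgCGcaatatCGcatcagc
Mkrn3: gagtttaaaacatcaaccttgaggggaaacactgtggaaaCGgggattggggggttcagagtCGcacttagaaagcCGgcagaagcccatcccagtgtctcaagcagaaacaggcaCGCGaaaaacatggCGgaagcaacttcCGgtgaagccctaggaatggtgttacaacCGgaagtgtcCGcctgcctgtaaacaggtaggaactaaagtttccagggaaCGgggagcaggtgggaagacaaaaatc
Gad1: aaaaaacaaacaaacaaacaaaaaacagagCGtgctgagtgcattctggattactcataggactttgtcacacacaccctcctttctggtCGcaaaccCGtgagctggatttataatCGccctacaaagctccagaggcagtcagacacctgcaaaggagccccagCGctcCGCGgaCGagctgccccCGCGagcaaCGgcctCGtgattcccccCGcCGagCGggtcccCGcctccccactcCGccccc
They hold 5, 10 and 17 CG sites in the order shown, and of 27025 genes in the RefSeq set, 55.5% hold at least as many as Ndn, 38.2% as Mkrn3 and 23.6% as Gad1 in the same window. The median gene holds 6. The count reads the same on either strand, and methylation was not measured on these arrays.

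Pisd-ps3, a pseudogene of the phosphatidylserine decarboxylase gene Pisd, was measured at 13.16, 13.26 and 12.52 in null recipients 4, 5 and 6, against 11.21, 11.09 and 11.69 in wildtype recipients 1, 2 and 3. It was high in all tumours and higher in each null one, by 1.65 ± 0.27 (SE, n = 3), against 1.28 ± 0.08 in transformed MEFs (adjusted p = 0.000638, limma). Its probe may also bind other Pisd copies.

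Onecut2, Gad1, Pcdh17 and Phf21b, each known from neurons, were also higher in every null recipient. They stand on a list of neuronal genes drawn up with earlier results of these data known, so that their count is no evidence about neuronal genes. Over its 17 measured members the median was 0.05, and 6 were higher without overlap (3.57% of all genes were). Among the 6 were Gad2 and Syt1, by only 0.05 and 0.04. Onecut2, a transcription factor of liver and neurons, stood at 8.09, 9.07 and 9.60 in null recipients 4, 5 and 6, against 6.31, 6.30 and 6.43 in wildtype recipients 1, 2 and 3. The wildtype recipients sat at the background level and the null ones well above it, with a difference of 2.57 ± 0.38 (SE, n = 3). In transformed MEFs the difference was 0.42 ± 0.20 and was not called (adjusted p = 0.272, limma).

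Gad1 encodes the enzyme that makes the transmitter GABA. It was measured at 10.20, 8.88 and 10.94 in null recipients 4, 5 and 6, against 8.06, 7.12 and 6.49 in wildtype recipients 1, 2 and 3, and was below background in transformed MEFs of both genotypes. Single arrays overlapped, since those of null tumours reached down to 8.27 and those of wildtype tumours up to 9.22. The difference was 2.79 ± 0.62 (SE, n = 3). The tumour difference exceeded that of transformed MEFs by 2.80 ± 0.50 (adjusted p = 0.438, limma). Leaving out null recipient 5, the lowest null tumour for Gad1, raises this by construction, to 3.36 ± 0.41 (adjusted p = 0.032, limma).

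Pcdh17, a protocadherin outside the clusters that guides growing axons, stood at 9.46, 8.90 and 8.79 in null recipients 4, 5 and 6, against 7.24, 6.44 and 7.88 in wildtype recipients 1, 2 and 3. The null recipients were close together while the wildtype ones were spread, and the difference was 1.87 ± 0.40 (SE, n = 3), against 0.04 ± 0.21 in transformed MEFs (adjusted p = 0.946, limma). Phf21b, which encodes a chromatin protein with a PHD finger, was at 8.04, 8.31 and 8.10 in the null recipients and at 6.89, 6.47 and 7.25 in the wildtype recipients, a difference of 1.28 ± 0.23. It was below background in transformed MEFs of both genotypes. The difference between tumours and transformed MEFs did not pass the test for Onecut2, Pcdh17 or Phf21b (adjusted p = 0.502, 0.664 and 0.502 in that order, limma).

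**Figure D2:**
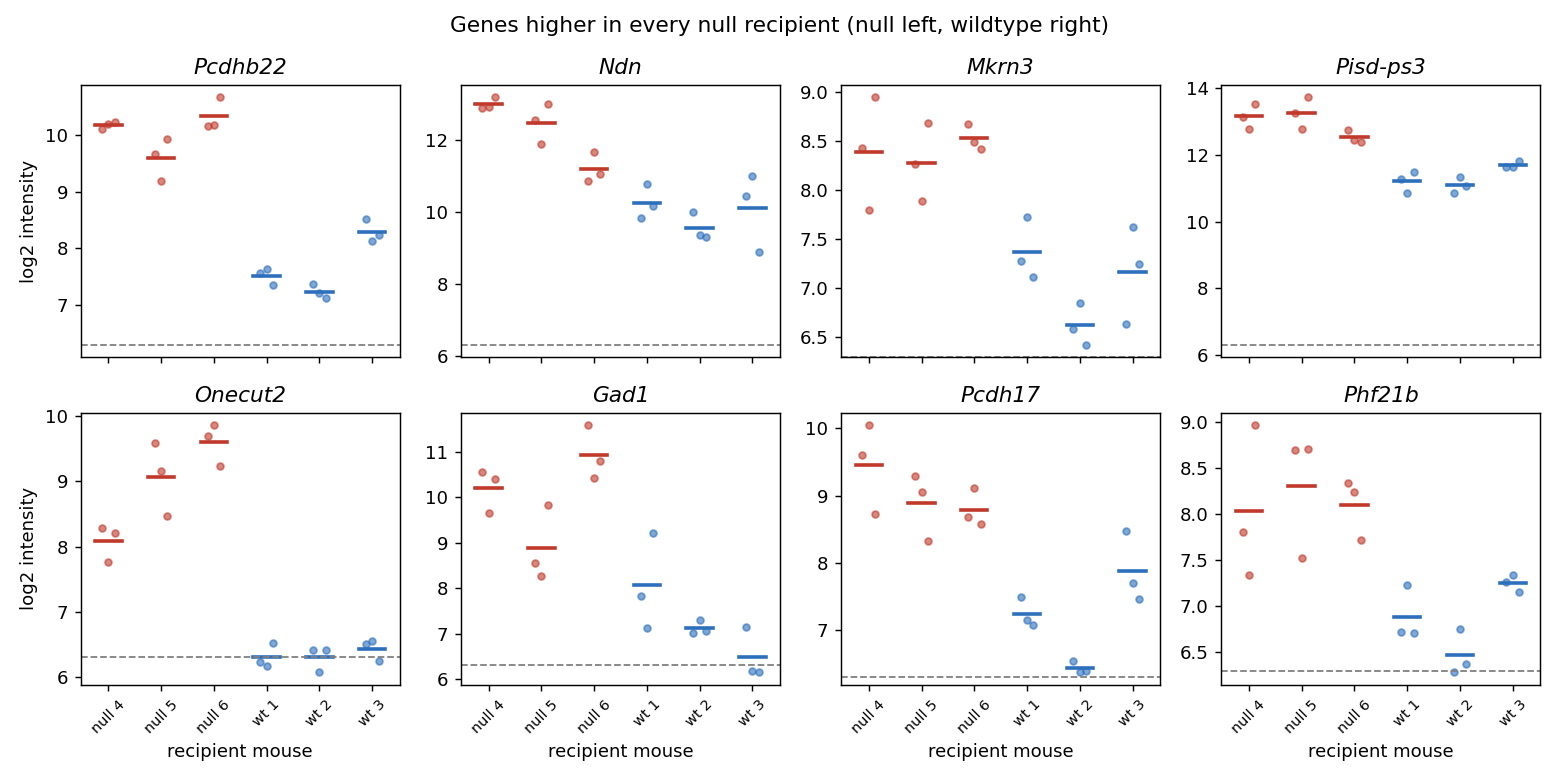
Log2 intensity (y axis) of 8 genes in each recipient mouse (x axis), null recipients left and wildtype recipients right; small points are the 3 arrays, thick lines their mean and the dashed line the background level. In each panel the 3 null means lie above the 3 wildtype means, while single arrays overlap between genotypes for Ndn, Gad1 and Pcdh17.

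Several of the largest differences were in muscle genes and were largest in 1 mouse. Chrng, the embryonic gamma subunit of the muscle acetylcholine receptor, stood at 8.48, 6.25 and 11.04 in null recipients 4, 5 and 6, against 6.23, 6.20 and 6.01 in wildtype recipients 1, 2 and 3. Only recipients 4 and 6 were above background, and the gene was at least 4.89-fold higher in null tumours. Tnnt1, a troponin of slow muscle fibres, was at 9.43, 7.05 and 11.24 in the null recipients and at 6.49, 6.88 and 6.71 in the wildtype recipients, a difference of 2.55 ± 0.99 (SE, n = 3). Popdc3, a membrane protein of muscle, differed by 2.80 ± 1.07, Isl1, a transcription factor of motor neurons and heart, by 2.83 ± 1.21, and Rbm20, a splicing factor of muscle titin, was at least 3.91-fold higher. Primary MEFs held signal of these genes before transformation. Tnnt1 stood there at 10.31 in null and 10.61 in wildtype cells, and Chrng at 8.01 and 8.31. In the same order Isl1 was at 7.88 and 8.25, Rbm20 at 7.69 and 7.70, and Popdc3, the dimmest, at 6.57 and 6.68. For each of these genes null recipient 6 was the highest tumour.

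Muscle lists showed the same order of tumours. Of 28 skeletal muscle genes listed, 15 passed the detection filter, which counted the null tumour arrays too. Those not kept include Ckm, Mb, Neb and Myh4. Of the 15 measured, 14 had a positive difference, against 49% of all genes. The median was 1.08, or 0.22 without the filter on dim probes. The mean level over the list was 7.89, 6.82 and 8.88 in null recipients 4, 5 and 6, against 7.09, 6.67 and 6.87 in wildtype recipients 1, 2 and 3, and 6.68 in null and 6.66 in wildtype transformed MEFs. Null recipient 6 was far above the others, null recipient 4 was second and null recipient 5 lay among the wildtype tumours. Without null recipient 6 the list median was 0.43, and that of the precursor genes was 0.06, against 0.67 with it.

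Single genes followed this order. Myod1, the master regulator of muscle fate, stood at 6.60, 5.99 and 10.11 in null recipients 4, 5 and 6, against 5.99, 5.99 and 6.01 in wildtype recipients 1, 2 and 3. Des, which encodes the muscle filament desmin, was at 8.07, 6.65 and 10.83 in the null recipients and at 6.76, 6.59 and 6.63 in the wildtype recipients. Both genes overlapped between genotypes because null recipient 5 stayed at the wildtype level. Myh3, the embryonic myosin heavy chain, and Tnni2, a troponin of fast fibres, did not overlap: Myh3 was at least 1.81-fold higher and Tnni2 differed by 1.08 ± 0.42 (SE, n = 3). Whether muscle RNA came from host muscle beside the tumour or from the grafted cells was not tested.

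Among the 12 largest differences towards higher levels without overlap were also genes of skin and limb. Msx1, a homeobox gene of limb and craniofacial mesenchyme, stood at 10.14, 8.92 and 8.63 in null recipients 4, 5 and 6, against 6.42, 6.27 and 8.47 in wildtype recipients 1, 2 and 3. Wildtype recipient 3 came within the reach of the null ones, and the difference was 2.18 ± 0.69 (SE, n = 3). Lor, which encodes loricrin of the cornified skin envelope, was at 9.78, 8.87 and 10.46 in the null recipients and at 6.32, 7.31 and 8.73 in the wildtype recipients, a difference of 2.25 ± 0.68. It was called in transformed MEFs (1.22 ± 0.12, adjusted p = 0.00229, limma). In primary MEFs Lor stood at 13.37 in null and 12.36 in wildtype cells, and Msx1 at 9.41 and 9.42. Ivl, which encodes involucrin of the same envelope, was at least 2.92-fold higher in null tumours, with null recipient 5 highest at 9.17. Of 17 keratinocyte and epithelial genes measured, 3 were higher (3.57% of all genes were) and 1 lower (3.11%) without overlap. The list median was 0.18, against 0.059 without null recipient 6 and -0.025 on chip 3 alone. One more of the 12, 1700093K21Rik, was at 8.22, 6.58 and 10.92 in the null recipients and between 6.29 and 6.42 in the wildtype recipients.

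Genes lower in null tumours differed by less. Among genes without overlap the largest such difference was that of Rarres2, which encodes the chemoattractant chemerin, followed by Smchd1. Rarres2 was at 8.28, 6.71 and 8.63 in null recipients 4, 5 and 6, against 10.13, 9.30 and 8.84 in wildtype recipients 1, 2 and 3, a difference of -1.55 ± 0.58 (SE, n = 3). Null recipient 5 was lowest and null recipient 6 lay just under wildtype recipient 3. Transformed MEFs differed the same way, by -1.32 ± 0.17 (adjusted p = 0.0073, limma).

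Gdnf, a growth factor of neurons and kidney buds, was at 7.93, 7.996 and 7.33 in the null recipients and at 8.56, 8.97 and 8.14 in the wildtype recipients, a difference of -0.80 ± 0.29 against -0.81 ± 0.11 in transformed MEFs (adjusted p = 0.0084, limma). Pcolce2, an enhancer of procollagen processing, went against its culture difference: it was lower in null tumours by -1.12 ± 0.35 and higher in null transformed MEFs by 0.77 ± 0.15 (adjusted p = 0.0286, limma), while the difference between the 2 did not pass (adjusted p = 0.502). Plat, the tissue plasminogen activator, differed by -0.83 ± 0.26, Gsn, the actin-severing gelsolin, by -0.90 ± 0.37, and Prrx1, a mesenchymal homeobox gene, by -0.76 ± 0.29. The other genes among the 12 largest differences towards lower levels were Dynap (-0.97 ± 0.33), BC046404 (-0.77 ± 0.26), the magnesium transporter gene Slc41a2 (-0.76 ± 0.28), and 2 genes of host-type cells, Cma1 and H2-Ea. On chip 2 alone, Dynap, Plat and Slc41a2 were higher in null tumours. Several of these falls rest on array 3 of wildtype recipient 3, which lay apart. For Dynap the arrays of that recipient read 9.49, 9.24 and 10.96, against 9.66 and 9.72 in null recipients 4 and 5. Without that array its mean also lay below the highest null recipient for Pcolce2, Gdnf, Slc41a2, BC046404 and H2-Ea. The lack of overlap in these genes thus depends on that array.

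Genes of host-type cells were bright in tumours of both genotypes. Below background in transformed MEFs of both genotypes and more than 1 log2 unit above it in tumours were 421 genes. This rule did not use primary MEFs, and the set does not hold host genes alone. Gad1, higher in every null recipient, is in it, and stood at 7.84 in null and 7.92 in wildtype primary MEFs. The highest of the 421 were Hbb-b1, a haemoglobin chain of red cells, Lyz1, a lysozyme of myeloid cells, and Cd74, H2-Eb1 and H2-Ab1 of MHC class II. Hbb-b1 was at 14.25, 14.20 and 14.19 in null recipients 4, 5 and 6, against 14.73, 14.83 and 13.67 in wildtype recipients 1, 2 and 3. Cd74 was at 13.58, 14.19 and 12.84 in the null recipients and at 13.75, 13.99 and 13.66 in the wildtype recipients. The genotypes overlapped for both genes. Of the 421 genes, 191 had a positive and 230 a negative difference, 18 were higher (4.28%, against 3.57% of all genes) and 8 lower (1.90%, against 3.11%) without overlap, and the median was -0.06.

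Macrophage and monocyte genes ran slightly lower in null tumours without any single gene standing apart. All 23 measured members had a negative difference, against 51% of all genes, between -0.73 and -0.06 with a median of -0.31, and 0 of the 23 separated the genotypes. Their mean level was 10.28, 10.23 and 9.48 in null recipients 4, 5 and 6, against 10.34, 10.75 and 9.91 in wildtype recipients 1, 2 and 3. Null recipient 6 was lowest and wildtype recipient 2 highest, while null recipients 4 and 5 and wildtype recipient 1 were level. Without null recipient 6 the median was -0.09, and on chip 2 alone it was 0.20, against -0.59 and -0.64 on chips 1 and 3. In transformed MEFs 5 of the 23 were above background in null and 4 in wildtype cells, and in tumours 22 and 23 were. Tyrobp, an adaptor of myeloid receptors, illustrated the list at 9.43, 10.07 and 8.76 in the null recipients and 9.82, 10.81 and 9.50 in the wildtype recipients, and Cd68, a lysosomal protein of macrophages, differed by -0.44 ± 0.36 (SE, n = 3).

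Mast cell genes had the largest negative median of the host lists, at -0.95 over 7 measured members, all 7 negative. Cma1, a mast cell chymase, stood at 6.66, 7.44 and 6.16 in null recipients 4, 5 and 6, against 7.51, 8.09 and 7.51 in wildtype recipients 1, 2 and 3, a difference of -0.95 ± 0.36 (SE, n = 3). The gap between the groups was narrow, and null recipient 6 was below background. In wildtype recipient 3 the arrays read 6.98, 6.22 and 9.32, the last being the array that lay apart from all others. Its remaining arrays lay below null recipient 5, so the lack of overlap in Cma1 rests on that array, as for several genes above. Primary MEFs also held Cma1 signal, at 9.05 in null and 8.75 in wildtype cells. Fcer1a, a chain of the IgE receptor, also did not overlap (-0.34 ± 0.15), whereas Mcpt4 (-1.08 ± 0.58) and Cpa3 (-0.96 ± 0.52), both mast cell proteases, did. The mean of the list was 7.60, 8.21 and 6.69 in null recipients 4, 5 and 6 and 8.06, 8.52 and 8.31 in wildtype recipients 1, 2 and 3, so null recipient 5 lay within the wildtype range. By array, wildtype recipient 3 had list means of 7.94, 7.25 and 9.74, the last again on the array that lay apart. Without null recipient 6 the median was -0.41, without the filter on dim probes -0.34, on chip 2 alone -0.12 and on chip 3 alone -1.77. The chip 3 value includes the array that lay apart.

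Among MHC class II and dendritic genes, 8 of 9 were negative with a median of -0.34, which was 0.05 without null recipient 6. H2-Ea, which encodes a class II chain and stands outside that list, was at 11.39, 11.31 and 10.28 in null recipients 4, 5 and 6, against 11.92, 12.27 and 11.43 in wildtype recipients 1, 2 and 3, just short of overlap, with a difference of -0.88 ± 0.37 (SE, n = 3). Endothelial genes had a median of -0.23 over 15 members, 13 of them negative, and erythroid genes one of -0.29 over 6, all negative, and in both lists 0 members separated the genotypes. With a recipient left out the endothelial median ranged between -0.45 and 0.030 (positive without wildtype recipient 3), and the erythroid one between -0.52 and -0.093. Neutrophil genes had a median of -0.06 over 9 members, with wildtype recipient 2 highest: the list mean was 7.18, 7.94 and 7.34 in the null recipients and 7.40, 8.77 and 6.95 in the wildtype recipients. T and NK cell genes, few of which were measured (6 of 21 listed), had a median of 0.01, and B and plasma cell genes (3 of 12) one of 0.32. The part of these host cells in the genotype differences of other genes was not tested.

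**Figure D3:**
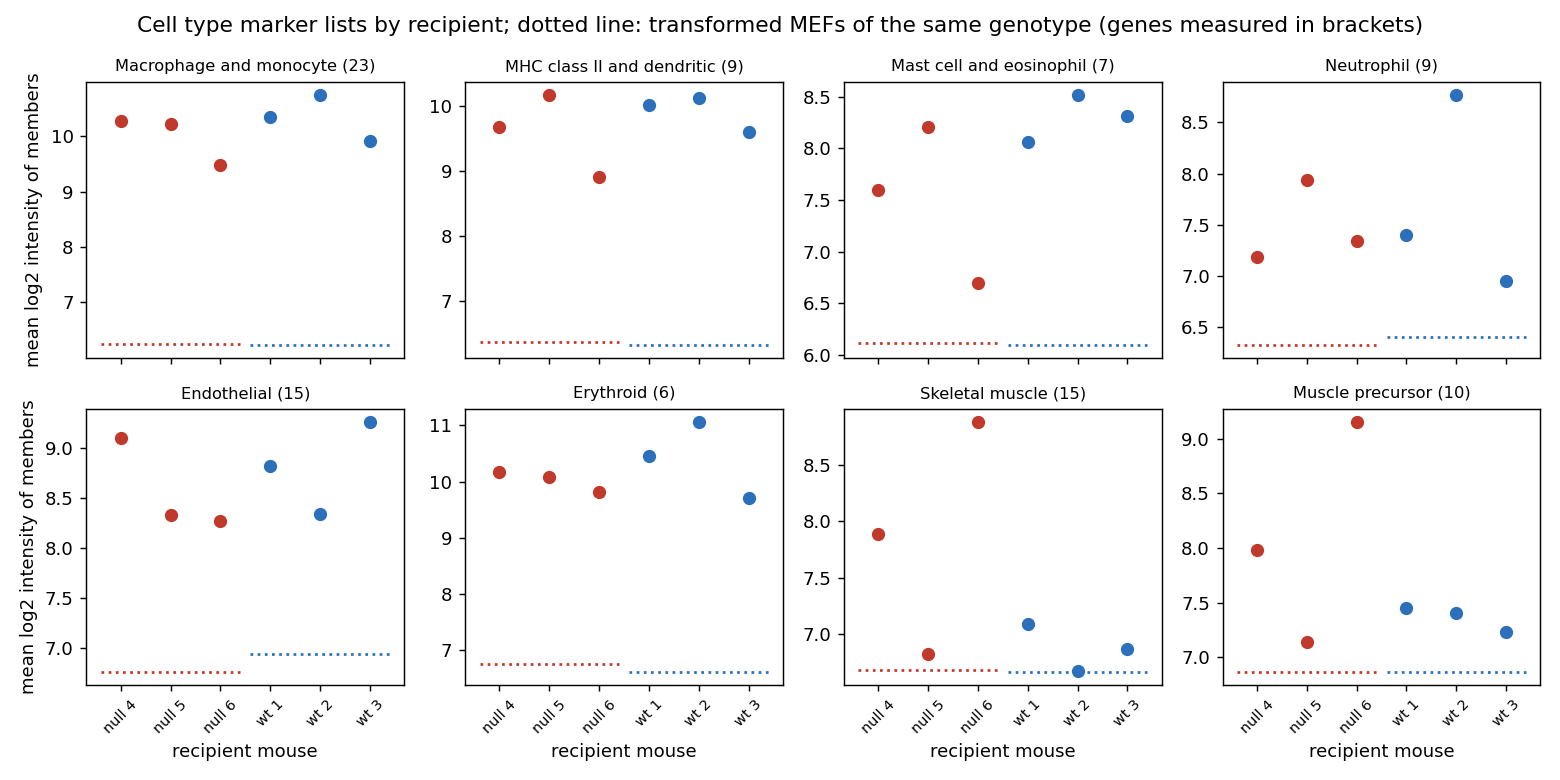
Mean log2 intensity of the measured members of 8 marker lists (y axis) in each recipient mouse (x axis), null recipients left and wildtype recipients right; dotted lines show transformed MEFs of the same genotype. Blood and vessel lists lie above the cultures in all 6 tumours with overlapping genotypes, and the 2 muscle lists are highest in null recipient 6.

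Genes that differed between genotypes before grafting were then read in the tumours. In the fit of transformed MEFs alone 906 genes were called (6.53%), 413 higher (2.98%) and 493 lower (3.55%) in null cells (limma). Of the 413 higher genes, 206 (49.9%) had a positive difference in tumours, against 49% of all genes, and 38 (9.20%) were higher in every null recipient, against 3.57% of all genes. Of the 493 lower genes, 306 (62.1%) had a negative difference, against 51% of all genes, and 23 (4.67%) were lower in every null recipient, against 3.11%. The median tumour difference was -0.00 for the higher and -0.07 for the lower genes, against 0.53 and -0.60 in transformed MEFs. The 2 comparisons share no samples, although the grafted cells may come from the same lines.

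In primary MEFs 6 genes were called higher (0.0433%) and 1, Smchd1, lower (0.00721%). Of the 6, 4 were higher in every null tumour (3.57% of all genes were), namely Pcdhb22, Mkrn3, Pisd-ps3 and LOC236604. The 38 genes higher in transformed MEFs and tumours included Pcdhb22, Ndn, Mkrn3, Pisd-ps3, Pcdha7, Lor and Isl1. The 23 genes lower in both of these included Smchd1, Rarres2, Gdnf, Gbp3 and Ifi35. The difference of differences was called in 0 of 13870 genes (0%), with 788 at an unadjusted p under 0.05 (5.68%). The array fit with the replicate block called 12 (0.0865%).

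**Figure D4:**
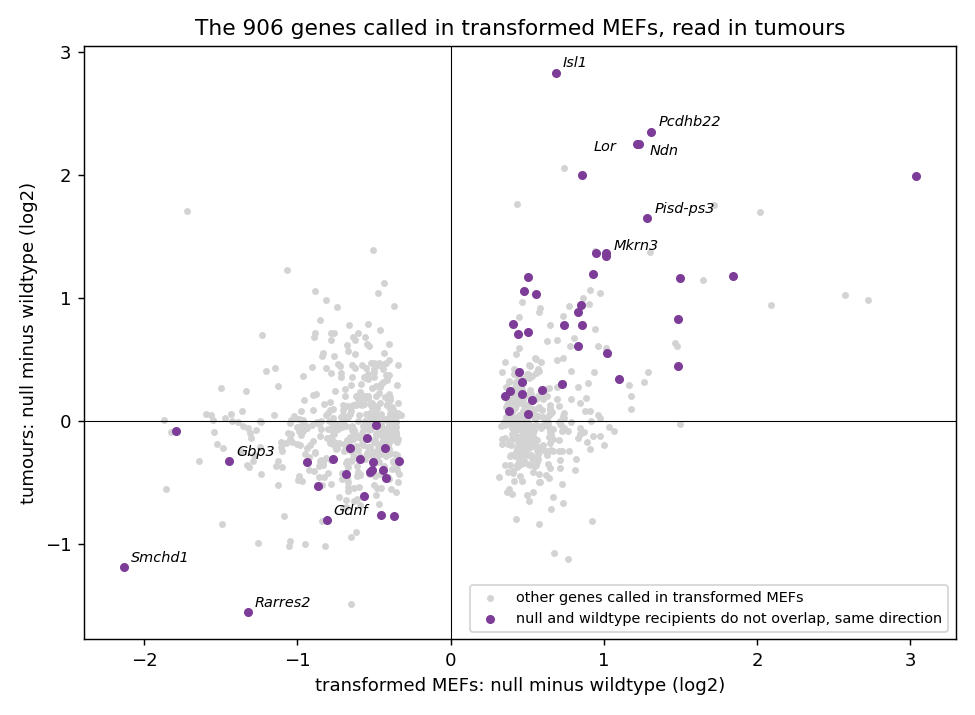
Null minus wildtype difference on the log2 scale in transformed MEFs (x axis) and in tumours (y axis) for the 906 genes called in transformed MEFs; purple points are the 61 genes whose null and wildtype recipients do not overlap in the same direction. Pcdhb22 and Ndn lie at 2.35 and 2.25 in tumours, Smchd1 at -1.18, and most of the other genes scatter about 0.

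Interferon response genes were lower in null transformed MEFs, and their median in tumours was nearer 0. Of 22 measured, the median difference was -0.15 in tumours and between -0.30 (without null recipient 6) and 0.047 (without wildtype recipient 1) with a recipient left out. It was -0.89 in transformed MEFs, where 18 were called lower (limma; 3.55% of all genes were), and 0.32 in primary MEFs, where 0 were called. In every null recipient 3 of them were lower (3.11% of all genes were). Gbp3, an interferon-induced GTPase, was at 8.16, 8.12 and 8.19 in null recipients 4, 5 and 6, against 8.56, 8.44 and 8.44 in wildtype recipients 1, 2 and 3, and differed by -0.33 ± 0.13 (SE, n = 3), against -1.44 ± 0.12 in transformed MEFs. Ifi35 differed by -0.31 ± 0.13 without overlap, and Gbp2, a related GTPase, by -0.77 ± 0.27 with overlap. Class I presentation genes had a median of -0.38 over 11 members, 10 of them negative, against -0.61 in transformed MEFs. It ranged between -0.61 and -0.18 with a recipient left out, being -0.18 without null recipient 6 and without wildtype recipient 2. Tapbp, a chaperone of class I loading, differed by -0.50 ± 0.18 and Psmb10, a subunit of the immunoproteasome, by -0.38 ± 0.15, both without overlap. On chip 2 alone Tapbp (0.34) and Ifi35 (0.37) were higher in null tumours.

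Cell division genes had small negative medians in tumours and positive ones in transformed MEFs. The 17 cell cycle and mitosis genes had a median of -0.12 in tumours, against 0.55 in transformed MEFs. In those cultures 14 were called higher (2.98% of all genes were). In tumours 2 members were lower in every null recipient (3.11% of all genes were). On chip 3 alone the tumour median was 0.11, and without null recipient 5 it was -0.030. The 23 DNA replication genes had a median of -0.21, with 19 negative (51% of all genes were) and 3 lower in every null recipient (3.11% were). In transformed MEFs the median was 0.40, and 8 were called higher (2.98% of all genes were). The tumour median was -0.073 without wildtype recipient 2, -0.071 on chip 2 and -0.38 on chip 3. Cdc45, a part of the replicative helicase, stood at 8.94, 8.78 and 8.96 in null recipients 4, 5 and 6, against 9.32, 9.40 and 9.49 in wildtype recipients 1, 2 and 3. The recipients of each genotype were close together, and the difference was -0.51 ± 0.14 (SE, n = 3), against 0.44 ± 0.10 in transformed MEFs (adjusted p = 0.0501, limma). Mcm6, of the same helicase, differed by -0.33 ± 0.18 and Gins2, its partner, by -0.45 ± 0.25. The difference between tumours and transformed MEFs did not pass the test for Cdc45 (adjusted p = 0.609), and no test of it was made over the lists.

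Chemokine and inflammation genes had a median of -0.45 over 21 members, 19 of them negative, and -0.23 in transformed MEFs. On chip 2 alone the median was 0.019 and on chip 3 -0.998. Saa3, an acute phase protein, was at 7.76, 7.96 and 8.70 in null recipients 4, 5 and 6, against 8.69, 9.25 and 9.39 in wildtype recipients 1, 2 and 3, with null recipient 6 reaching the wildtype range. Its difference was -0.97 ± 0.31 (SE, n = 3), against -1.05 ± 0.21 in transformed MEFs (adjusted p = 0.028, limma).

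Matrix and collagen genes had a median of 0.19 over 24 members, 17 of them positive, and 2 were higher without overlap (3.57% of all genes were). The median was -0.0013 without wildtype recipient 2 and -0.056 on chip 1 alone. Lox, which crosslinks collagen, differed by 0.46 ± 0.16 and Col5a3, a fibrillar collagen chain, by 0.74 ± 0.19, both without overlap, although Lox was lower in null tumours on chip 3 alone (-0.59). Timp1, an inhibitor of matrix metalloproteinases, lay at 15.17 to 15.20 in null tumours and 14.76 to 15.03 in wildtype tumours. Output genes of the Ras pathway had a median of 0.17 over 23 members, of which Dusp6, a phosphatase that dampens ERK, was higher in every null recipient (0.39 ± 0.20). The median was 0.076 without null recipient 5, 0.065 without wildtype recipient 3 and 0.044 on chip 2 alone. The 12 lists not described here, among them fibroblast, hypoxia, p53 target and metalloproteinase genes, had medians between -0.19 and 0.19.

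The genes targeted by the transforming constructs were measured as well. Trp53 lay at 8.11, 8.32 and 8.21 in null recipients 4, 5 and 6, against 7.96, 7.999 and 8.86 in wildtype recipients 1, 2 and 3. Hras lay at 10.21, 10.06 and 9.93 in the null recipients and at 10.42, 9.94 and 10.05 in the wildtype recipients. The genotypes overlapped for both genes. Whether these probes read the transgene or the knocked-down transcript of grafted cells apart from host RNA was not tested.

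**Figure D5:**
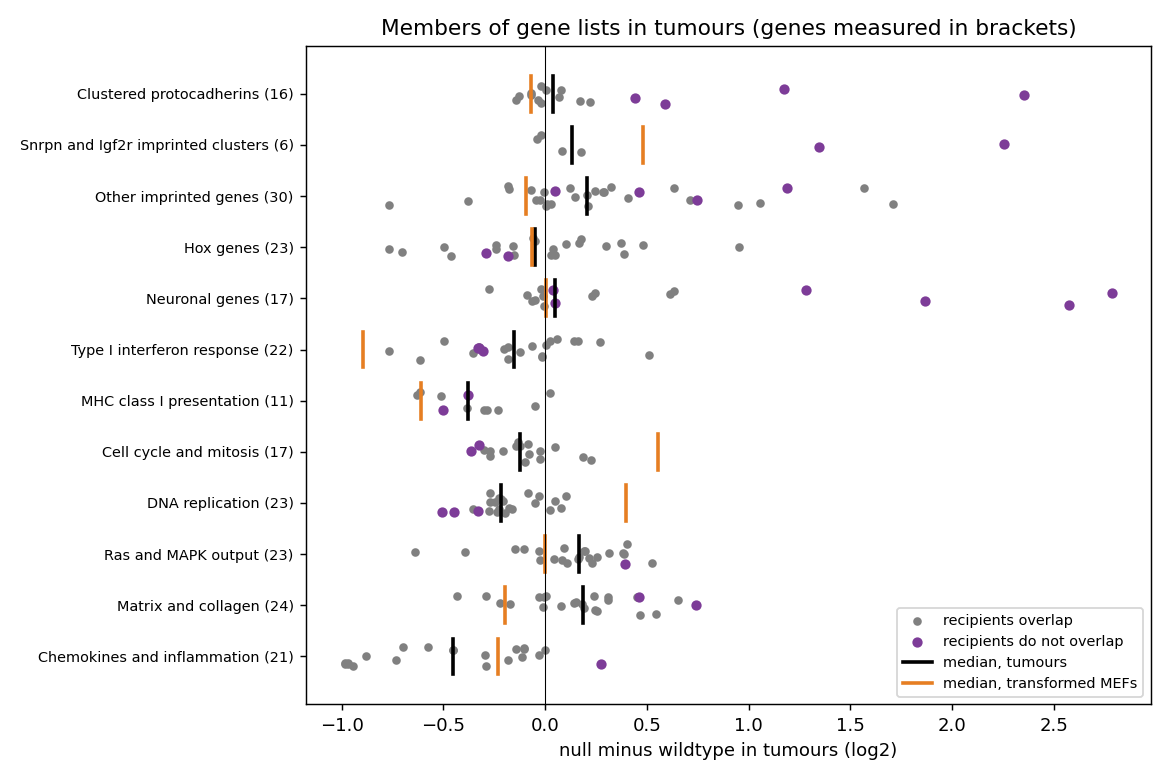
Null minus wildtype difference in tumours on the log2 scale (x axis) for each measured member of 12 gene lists (rows); purple points are members whose recipients do not overlap, black lines the list medians in tumours and orange lines those in transformed MEFs. The protocadherin, Snrpn and neuronal lists hold a few members far to the right with medians near 0, and the cell cycle and DNA replication medians lie left of 0 in tumours and right of it in transformed MEFs.

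Imprinted genes outside the Snrpn and Igf2r clusters had a positive difference in 22 of 30 cases, against 49% of all genes, with a median of 0.21 against -0.10 in transformed MEFs. The median was 0.055 without wildtype recipient 2, 0.38 without wildtype recipient 1, 0.096 on chip 1 and 0.064 on chip 2. Meg3, a maternally expressed non-coding RNA, stood at 11.79, 11.92 and 11.66 in null recipients 4, 5 and 6, against 11.36, 11.17 and 10.60 in wildtype recipients 1, 2 and 3, a difference of 0.75 ± 0.23 (SE, n = 3). Rtl1, the paternally expressed gene of the same domain, differed by 0.46 ± 0.15, although it was lower in null tumours on chip 2 alone. H19, a maternally expressed growth-restraining RNA, was at 12.82, 12.49 and 13.97 in the null recipients and at 12.29, 11.43 and 11.98 in the wildtype recipients, a difference of 1.19 ± 0.43. These 3 genes did not overlap in tumours. In transformed MEFs their differences were -0.24 ± 0.13, -0.26 ± 0.12 and -0.06 ± 0.14 in the same order, and 0 of them were called (limma). Peg3, a paternally expressed zinc-finger gene, differed by 1.57 ± 0.59 with overlap. H19 is also abundant in developing muscle, and null recipient 6 was the highest tumour for H19 and Peg3.

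On the X chromosome, where Smchd1 is known to act in female cells, 148 of 378 genes had a positive difference, against 49% of all genes, and the median was -0.06. This lay within the spread of the autosomes. Their medians ran from -0.11 on chromosome 13 (112 of 406 genes positive) to 0.08 on chromosome 19 (262 of 411). Of the 378 X-linked genes, 13 were higher and 13 lower in every null recipient, near the 3.57% and 3.11% of all genes. Xist was on the array but did not pass the detection filter. Whether the grafted cells hold an inactive X chromosome was not tested. Hox genes, another set of Smchd1 targets, had a median of -0.05 over 23 members, with 0 higher and 2 lower in every null recipient (3.11% of all genes were), and 0.25 without null recipient 6. Y-linked genes were measured in all 6 tumours, and Ddx3y, a helicase gene, was at 12.65, 12.48 and 11.71 in null recipients 4, 5 and 6 and 12.15, 12.18 and 12.34 in wildtype recipients 1, 2 and 3, with overlap.

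Single tumours also had features of their own. Null recipient 6 differed from all 5 other recipients by more than 1 log2 unit in 284 genes, of which Insm1, a neuroendocrine zinc-finger gene, was at 10.23, against 6.34 in the next recipient. Wildtype recipient 2 did so in 264 genes, led by Cxcl2 at 11.40, a neutrophil attractant, against 8.49 in the next. Wildtype recipient 3 did so in 185 genes, led by Cldn6 at 10.45, a tight junction protein, against 6.50. It also had the highest Krt8, a simple epithelial keratin, at 14.41, against 12.08 in the next, null recipient 6. The counts were lower for null recipient 5 (52 genes, led by the neuropeptide gene Tac1 at 10.79), wildtype recipient 1 (50, led by a low level of Sox11, a transcription factor of neural progenitors, at 7.96) and null recipient 4 (14).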

How the data were processed

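RNA was measured on single-colour Illumina MouseWG-6 V2 bead arrays, for which the authors deposited normalized log2 intensities. Software named in the submitters' processing notes is BeadStudio, limma 3.12.1 and R 2.15.1, and their background correction was not analysed here. The deposited log2 values were on a common scale within each stage only, so the 30 arrays were quantile normalized together. Scanner tables, exported by BeadStudio 3.4.0 without normalization per the file headers, hold 480 columns of deposited intensities, detection p-values and bead statistics whose names match no sample label. No column was assigned to a sample. They served to pair probes with gene names and to count, over all arrays, those detecting a probe. Of 45281 probes, the 20254 detected (p under 0.01) by 3 or more arrays were kept, and the brightest probe by mean stood for its gene (13870 genes). Symbols and chromosomes came from the RefSeq GRCm38.p6 annotation.

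Recipient means were fitted with limma 3.58.1 in R 4.3.3 (lmFit, eBayes), with Benjamini-Hochberg adjustment over all genes and calls under 0.05. The difference of differences allowed a variance weight per stage. On a single simulated data set without a genotype difference the fit of 18 arrays made calls and the fit by recipient did not. Genes were drawn independently there and without a chip effect. "At least" folds set the brighter mean against the higher of the background level and the dimmer signal. The number of arrays limits the precision.

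The replicate number pairs arrays, since per the labels each number is 1 beadchip that held all 6 recipients. Same-numbered arrays of different recipients deviated with a mean correlation of -0.15 in null and -0.26 in wildtype tumours, and arrays of a recipient with 0.14 to 0.58.

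Named genes were the 12 largest differences in each direction among genes without overlap, up to 4 members per list by smallest p, up to 5 genes with the widest gap for each recipient, the 10 brightest genes below background in transformed MEFs, and Smchd1, Trp53, Hras and Y-linked genes. Xist was also a fixed gene but was not kept by the filter. The lists, rules and members were chosen with earlier results of these data known. Normalization, filters, probe choice, weights, single chips and left-out recipients were tried as alternatives. A few genes that these rules name are not reported here.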

Additional observations from a re-analysis of the deposited data

How the results depend on the processing

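In tumours 0 genes were called under each alternative other than the 3 that follow, among them the values as deposited, no filter on dim probes, the mean of a gene's probes, each chip alone and each left-out recipient. Leaving out array 3 of wildtype recipient 3, a setting chosen after seeing the data, also gave 0. The fit of arrays with the replicate block called 7, a spread shared over all 6 groups 19, and unadjusted p-values under 0.05 numbered 313. Smchd1, at -1.18, passed under the first (adjusted p = 0.0422, limma) and the second (adjusted p = 0.000192), and kept its direction in all. The difference of differences called 12 genes with the replicate block, and 0 to 2 with a recipient left out, the 2 being Gad1 and Myh3 without null recipient 5.

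Medians of host lists moved as follows. Without the filter the mast cell median was -0.34, the B cell median -0.00063 and the skeletal muscle median 0.22. With the median of a recipient's arrays the B cell median was -0.034. On chip 1 it was -0.29, and on chip 2 it was 0.76, the macrophage median 0.20 and the mast cell median -0.12. On chip 3 the neutrophil median was -0.82 and the mast cell median -1.77. With a recipient left out the neutrophil median ranged between -0.84 and 0.030. Of the other lists, 13 moved in 34 values in all. Among them, chip 1 put the fibroblast median at -0.34 and chip 2 the hypoxia median at 0.41 and the p53 target median at 0.17, and the neuronal median reached 0.26 without wildtype recipient 2.

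Of 1170 values of 65 named genes under alternatives, 13 reversed: Igkc to -0.13 with the median of arrays and -0.29 on chip 1; on chip 2 Dynap (0.25), Plat (0.27), Slc41a2 (0.35), Rtl1 (-0.20), Mcm6 (0.051), Tapbp (0.34), Ifi35 (0.37), Tyrobp (0.20), Cd68 (0.94) and Igf2bp1 (-0.63); and Lox on chip 3 (-0.59). The cause was not tested. Background correction from scanner intensities was not run, since their columns match no sample.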
